A study of Mus musculus with 4 samples.

Results

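Tbr1 and Plpp4 ganglion cells are retinal ganglion cells, the neurons that send the output of the retina to the brain, in which 2 or more transcripts of Tbr1 or Plpp4 together were counted. There were 60 of them among 3237 barcodes, which is 1.85% of all barcodes and 6.33% of the 948 barcodes that passed as ganglion cells (95% exact binomial interval 4.86% to 8.07%). A barcode passed as a ganglion cell with at least 1 unique molecular identifier (UMI, 1 counted transcript) of Slc17a6, the vesicular glutamate transporter of these neurons, and at least 3 UMIs of Slc17a6 and the ganglion cell gene Rbpms together. It also needed at most 1 UMI of Lhx1, a horizontal cell gene, and under 10% of its UMIs from mitochondrial genes. Of the 75 ganglion cells with 2 or more UMIs of Tbr1 and Plpp4, 14 were kept out because they had 20 or more UMIs of Cartpt, and 1 because it had 2 or more UMIs of Neurod2, both markers of other ganglion cell types. The comparison cells were the 784 ganglion cells with no UMI of either gene, and the 89 cells with 1 UMI belong to neither side.

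The cells came from retinas of 3-month-old C57BL/6 mice carrying a GFP reporter for Brn3b, the transcription factor encoded by Pou4f2, and GFP-positive cells were sorted before droplet sequencing of transcript 3′ ends. The labels name 4 retinas in 1 group, and the barcodes are not tied to a retina, so the cells form 1 pooled sample and no test between retinas or conditions could be made. Every level below is a sum of UMIs over cells in CPM (scaled to the same total in every group), and its interval is an exact 95% interval for counting error alone. The share of these cells holds only for a population sorted on the reporter.

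Tbr1 is a T-box transcription factor best known from the cerebral cortex. In the mouse retina it is made by a few ganglion cell types, among them the J type, which carries the junctional adhesion molecule Jam2, and there it controls the depth at which the dendrites end. The adhesion molecule Cdh8 and the sorting receptor Sorcs3 are known to act downstream of Tbr1 in these types. Plpp4 is a phospholipid phosphatase that removes the phosphate group from phosphatidic acid.

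Tbr1 lies on the plus strand at chr2:61802930-61814114 and Plpp4 on the plus strand at chr7:129257031-129391412, in GENCODE annotation of the mouse build GRCm38. Slc7a11, the gene with the highest ratio in these cells, lies on the minus strand at chr3:49892526-50443614. The 250 bases before the start of Plpp4 (chr7:129256844-129257093, plus strand) and of Slc7a11 (chr3:50443614-50443863, minus strand), from RefSeq for GRCm38.p6, are shown because one gene helps to choose the cells and the other has the highest ratio to the comparison cells. The windows end at the RefSeq starts, which differ from the GENCODE starts given above, and the end of the Plpp4 window lies inside the gene as GENCODE places it. Capitals mark matches to TGATGNAA, the core of the response element that C/EBP and ATF factors share.
Slc7a11: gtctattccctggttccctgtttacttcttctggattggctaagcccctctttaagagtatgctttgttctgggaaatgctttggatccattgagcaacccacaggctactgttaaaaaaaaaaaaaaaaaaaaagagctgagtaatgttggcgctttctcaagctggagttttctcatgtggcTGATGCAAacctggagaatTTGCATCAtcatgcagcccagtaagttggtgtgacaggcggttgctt
Plpp4: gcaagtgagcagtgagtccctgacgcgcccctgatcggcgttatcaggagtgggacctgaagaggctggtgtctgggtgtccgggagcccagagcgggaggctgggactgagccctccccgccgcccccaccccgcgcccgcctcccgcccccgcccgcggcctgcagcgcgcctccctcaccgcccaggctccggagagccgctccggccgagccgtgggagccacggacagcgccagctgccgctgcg

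The windows differ in composition. The Plpp4 window was 75.6% G and C with 27 CpG dinucleotides, and the Slc7a11 window was 43.2% G and C with 2. The Slc7a11 window held 2 matches to TGATGNAA on opposite strands, which began 66 and 47 bases before the start of the gene. Searched on both strands, TGATGNAA occurred at least once in 3.97% of 32851 promoter windows in the table (250 bases before to 50 after each start) and at least 2 times in 0.0700% of them. Of the 12 genes with the highest ratios named below, 9 were in the promoter table with 13 windows, and Nos1ap was the other gene with a match, TGATGGAA. Of the 12 genes with the lowest ratios, 8 were in the table with 12 windows, and none held TGATGNAA. The T-box motif AGGTGTGA, found in 1.28% of all windows, and TGACNNNGC, the core of the antioxidant response element, found in 12.4%, were in no window of either set. The motifs do not overlap one another in the windows printed. A match describes the letters of a window and is not a measurement of binding.

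Tbr1 and Plpp4 were scarce transcripts even in the cells they chose, and their counts are a description, since the rule used them. A member held between 2 and 6 UMIs of the pair, with a median of 3. The sum was exactly 2 in 27 cells, 3 in 16 cells and 4 or more in 17 cells, so 27 cells sat just inside the threshold and the 89 cells with 1 UMI just outside it. Both transcripts were seen in 32 members, Plpp4 alone in 19 and Tbr1 alone in 9. Tbr1 had a median of 1 UMI per cell (range 0 to 4) and 80.2 CPM, and Plpp4 a median of 2 (range 0 to 5) and 96.0 CPM. Levels of different genes are not compared here, because 3′ counts also depend on how well each transcript is captured.

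Members and comparison cells passed the same gate, and 2 ganglion cell genes beyond it stood at similar levels on both sides. Sncg, a synuclein abundant in ganglion cells, stood at 4029 CPM in members and 4060 CPM in comparison cells, and the surface protein gene Thy1 at 1709 and 1587 CPM. Of 16 ganglion cell markers, 12 lay within 1.5-fold of the comparison, 2 were higher and 2 were lower. Among all genes compared, 4.27% were 1.5-fold or more higher in members and 9.73% were lower, so the 12 are not read as a likeness particular to these markers. The 16 include the gate genes Rbpms and Slc17a6 and the reporter gene Pou4f2, so the count of 12 is also not independent of the gate and the sort. Cells of both sides were of similar depth, with a median of 15749 UMIs per member (range 6731 to 32743) and 15521.5 per comparison cell (range 3397 to 53709), and the median mitochondrial share was 3.65% in members and 3.97% in comparison cells. A doublet caller marked 1 of 60 members and 23 of 784 comparison cells.

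Transcripts of other retinal cells were present on both sides. Summed over 7 rod markers the level was 846 CPM in members (119.7 to 20120 CPM per cell) and 774 CPM in comparison cells (0 to 21529), and 1 member carried 376 of the 854 rod UMIs of the members. The 8 bipolar cell markers summed to 319.8 CPM in members (0 to 4991 per cell) and 396 CPM in comparison cells (0 to 9522). The 9 amacrine markers summed to 454 CPM in members (0 to 1303 per cell), where Tfap2a and Gad1 were at 0, and to 510.0 CPM in comparison cells (0 to 1900). The 7 horizontal cell markers, which include Calb1, summed to 600.0 CPM in members (0 to 1403 per cell), with Onecut1 at 0, and to 594 CPM in comparison cells (0 to 6841). The 7 Müller glia markers summed to 339.6 CPM in members, with Aqp4 at 0, and to 468 CPM in comparison cells, the 6 cone markers to 101.0 and 140.2 CPM, the 8 microglia markers to 76.2 and 108.0 CPM, and the 6 vessel markers to 2.97 CPM, with 3 of the 6 at 0, and 19.0 CPM. Conversely, of 117 horizontal cells (of 415) that reached 12500 UMIs, 116 had the ganglion cell gene Sncg and 62 had Thy1 at that depth. A share of cells with a UMI, low or high, is therefore not by itself taken as expression. The part of these transcripts in the differences below was not tested.

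Members and comparison cells differed in a small set of genes. Of the 9295 genes that reached 100 UMIs when both sides were summed, 77 were 2-fold or more higher in members (0.828%) and 354 were 2-fold or more lower (3.81%), and the median log2 ratio was -0.02. With a threshold of 1.5-fold the counts were 397 higher (4.27%) and 904 lower (9.73%). These thresholds are sizes of a difference, not tests. The Cartpt and Neurod2 maxima were set on members alone. With the maxima on both sides, 64 genes were 2-fold or more higher and 277 lower, and with no maximum 60 and 248. The counts per gene list below were made with the maxima on members alone.

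**Figure D1:**
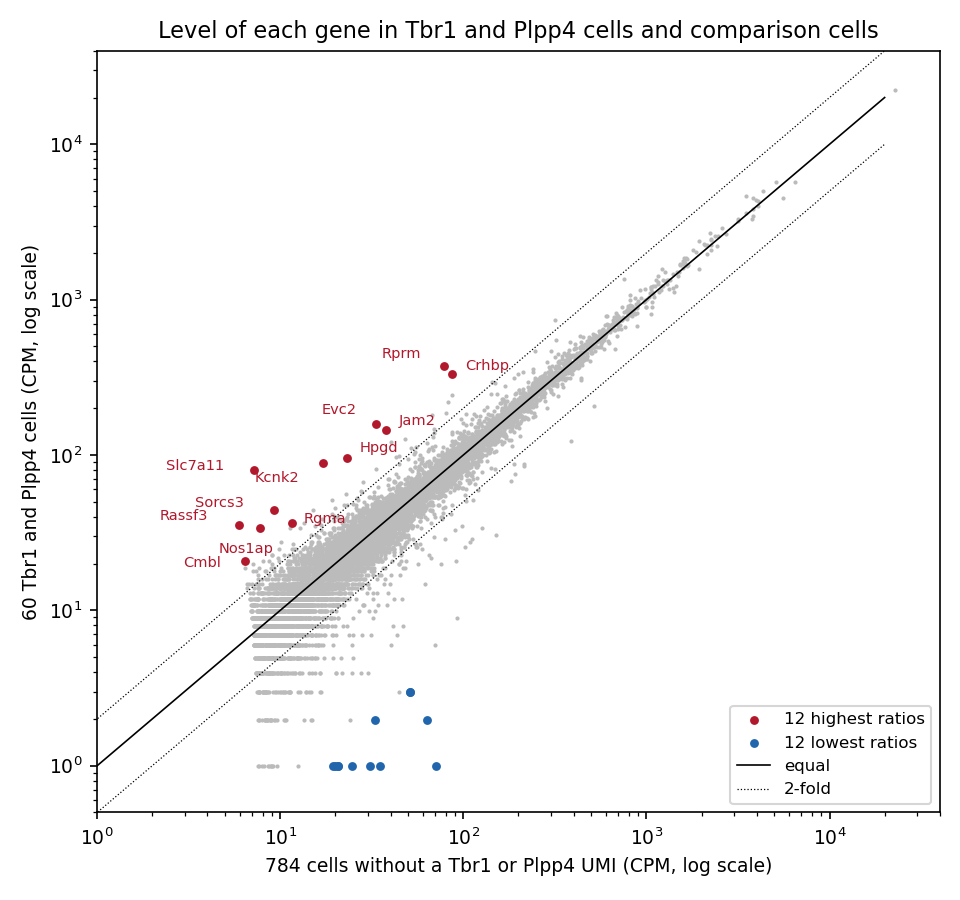
Level of each of the genes compared in the 60 Tbr1 and Plpp4 cells (vertical axis, CPM, log scale) against the 784 ganglion cells with no UMI of either gene (horizontal axis, CPM, log scale). Each point is 1 gene with a level above 0 on both axes, the solid line marks equal levels and the dotted lines 2-fold, and the 12 highest ratios (red, named) run up to 11.2-fold for Slc7a11 while the 12 lowest (blue) rest on 1 to 3 UMIs in members.

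Slc7a11 encodes the light chain of the antiporter that takes up cystine in exchange for glutamate. It was seen in 31 of 60 members, with a median of 1 UMI and a maximum of 6, and in 63 of 784 comparison cells, with a median of 0 and a maximum of 6. The single-cell counts overlap. Its level was 80.2 CPM in members (63.7 to 99.7) and 7.14 CPM in comparison cells (5.76 to 8.75), a ratio of 11.2 (8.23 to 15.3). Thinned to 12500 UMIs per cell, 42.9% of 49 members and 6.60% of 576 comparison cells had a UMI, against 0 of 117 horizontal cells. Read the other way, 102 ganglion cells had a Slc7a11 UMI, of which 31 were members, 8 had 1 UMI of Tbr1 or Plpp4 and 63 were comparison cells. With 3 or more Slc7a11 UMIs, 12 of 20 ganglion cells were members and 7 were comparison cells.

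Rprm, which encodes Reprimo, a p53-induced protein linked to cell cycle arrest, was seen in 54 of 60 members with a median of 6 UMIs (range 0 to 18) and in 280 of 784 comparison cells with a median of 0 (range 0 to 29). It reached 372 CPM in members and 78.1 CPM in comparison cells, a ratio of 4.77 (4.22 to 5.37). At equal depth 81.6% of members and 32.1% of comparison cells had a UMI, beside 5.13% of horizontal cells. Kcnk2, which encodes the two-pore potassium channel TREK-1, was seen in 37 of 60 members (median 1, highest 8) and 115 of 784 comparison cells (median 0, highest 10). Its level was 89.1 CPM in members and 17.2 CPM in comparison cells, a ratio of 5.18 (4.01 to 6.64), and 0 of 117 horizontal cells had a UMI, where 3 such cells would be 2.56%, a limit on detection and not on expression. Slc7a11, Rprm and Kcnk2 were listed as markers of these cells with results of the same data known, so their ratios are not independent support for that name.

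Jam2 and Sorcs3, known from the literature on Tbr1 cells, were not used to choose them. Jam2, the adhesion molecule of J cells, was seen in 46 of 60 members (median 2 UMIs, highest 9) and 307 of 784 comparison cells (median 0, highest 7). It stood at 146 CPM in members and 37.9 CPM in comparison cells, a ratio of 3.84 (3.18 to 4.63). Sorcs3 was seen in 29 of 60 members (median 0, highest 3) and 97 of 784 comparison cells (median 0, highest 4), at 44.6 CPM and 9.21 CPM, a ratio of 4.84 (3.35 to 6.86). Of the 10 genes in the literature list, Tbr1 and Plpp4 aside, 6 had enough UMIs to compare. Among all genes compared, 0.828% were 2-fold or more higher in members and 3.81% were 2-fold or more lower. Jam2, Sorcs3, the neuropeptide gene Calca (2.92-fold, 1.67 to 4.84) and the protocadherin gene Pcdh20 (2.15-fold, 1.23 to 3.56) were 2-fold or more higher in members, and Irx4 and Cdh7 were 2-fold or more lower. Calca rested on few cells outside cluster 4 of the clustering described below, with 4 UMIs (6.46 CPM) in the 42 members of that cluster, 15 UMIs (38.4 CPM) in the 18 others and 6.45 CPM in comparison cells, and 1 cell held 26.3% of its UMIs in members. Cdh8 had 17 UMIs in members and 58 in comparison cells, too few to be counted, with a ratio of 3.78 (2.06 to 6.58). Among the other T-box genes, Eomes, the factor of intrinsically photosensitive ganglion cells, stood at 6.93 CPM in members and 28.0 CPM in comparison cells, and Tbx20 at 8.91 and 19.7 CPM, while Tbx2 was within 1.5-fold.

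**Figure D2:**
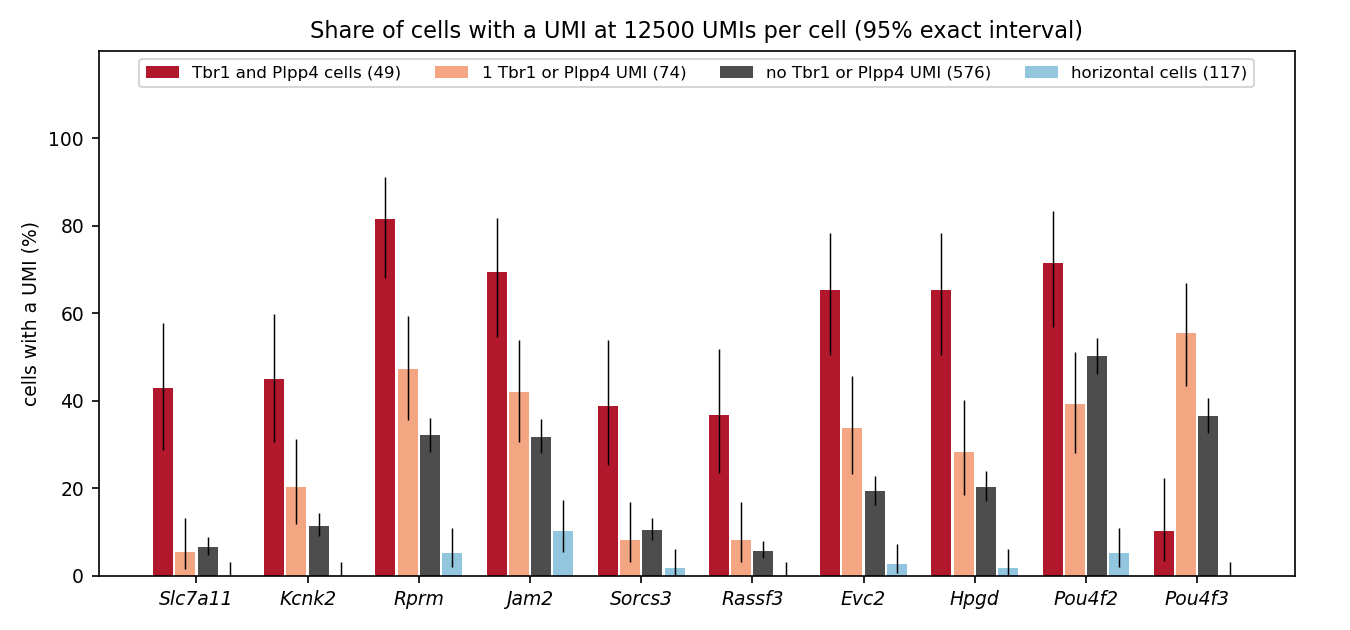
Share of cells with at least 1 UMI (vertical axis, percent) for 10 genes after every cell was thinned to 12500 UMIs, in 49 Tbr1 and Plpp4 cells, 74 ganglion cells with 1 UMI of either gene, 576 ganglion cells with none and 117 horizontal cells. Bars are shares and lines exact 95% intervals, and members stand above comparison cells in 9 genes and below them in Pou4f3, at 10.2% and 36.5%.

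The other genes among the 12 highest ratios had varied roles. Rassf3, a Ras-association domain protein, had a ratio of 6.03 (3.94 to 9.07), with a UMI in 26 of 60 members and 70 of 784 comparison cells. Evc2, a protein of the base of the primary cilium that takes part in hedgehog signalling, had 157 CPM in members and 33.3 CPM in comparison cells, a ratio of 4.72. Nos1ap, an adaptor of neuronal nitric oxide synthase, had a ratio of 4.34 on 34 UMIs in members, and 69.2% of horizontal cells also carried it. Hpgd, which inactivates prostaglandins, had a ratio of 4.11, and Crhbp, a secreted protein that binds corticotropin-releasing hormone, 3.80, with 331 CPM in members and 87.0 CPM in comparison cells. The hydrolase gene Cmbl (3.22) and the repulsive guidance gene Rgma (3.18) closed the 12. Of the 21 Cmbl UMIs in members, 14 were in the 12 cells of subgroup 3 described below. Its log2 ratio was -0.41 in the 42 members of cluster 4, also described below. No cell held over 14.3% of the members' UMIs of any of the 12 genes.

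The lowest ratios belonged to genes that other ganglion cells carry. Ppp1r17, a phosphatase inhibitor, had 1 UMI in all members together and 920 in comparison cells, where it was seen in 306 of 784 cells, a ratio of 0.0140 (0.000354 to 0.0783). Foxp2, a transcription factor of the F ganglion cell types, had 1 UMI in members and 456 in comparison cells, and the opioid precursor gene Penk had 2 and 822. Irx4 had 3 UMIs in members and 663 in comparison cells. The remaining 8 of the 12 were Coch, Tfap2d, C530008M17Rik, Hs3st2, Lrrtm1, Serpinb1b, Lypd1 and Bcl11a, with 1 to 3 UMIs each in members and 252 to 667 in comparison cells. The Cartpt and Neurod2 maxima were set on members alone, and without them 5 of these ratios moved beyond their intervals on the log2 scale, with Tfap2d at -0.40 (-4.64 with the maxima), Irx4 at -1.45 (-4.10), Bcl11a at -1.83 (-4.06), Lypd1 at -2.46 (-4.11) and Penk at -2.64 (-4.99). Zic1, a zinc finger factor, had 0 UMIs in members and 214 in comparison cells, which makes it at least 5.53-fold higher in the comparison cells with 3 counts as the floor over the members, and the neuropeptide gene Npy had 0 and 117 UMIs, at least 3.02-fold higher there.

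The POU factors split in these cells. Pou4f2, the gene of the sorted reporter, was seen in 48 of 60 members (median 3 UMIs, highest 10) and 461 of 784 comparison cells (median 1, highest 13), and stood at 186 CPM in members and 79.9 CPM in comparison cells, a ratio of 2.33 (1.98 to 2.72). Pou4f3 was seen in 8 of 60 members (median 0, highest 6) and 319 of 784 comparison cells (median 0, highest 18), at 22.8 CPM and 64.9 CPM, a ratio of 0.351 (0.221 to 0.530). Pou4f1 was within 1.5-fold, at 404 CPM in members and 490.2 CPM in comparison cells. The LIM factor Isl1 stood at 291 CPM in members and 149 CPM in comparison cells, and Isl2 at 44.6 and 65.3 CPM.

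Of 44 transcription factor genes compared, 2 were 2-fold or more higher in members and 13 were 2-fold or more lower, with a median log2 ratio of -0.44, beside 0.828% higher and 3.81% lower of all genes compared. The 2 higher ones were the homeobox genes Barhl2, with 121 CPM in members and 40.5 CPM in comparison cells (2.98-fold, 2.43 to 3.64), and Irx6, with 219 and 82.7 CPM (2.65-fold, 2.28 to 3.06). Barhl2 was also seen in 78.6% of horizontal cells at equal depth and Irx6 in 1.71%. Of the other Irx genes, Irx2 and Irx4 had 3 UMIs each in members, and Irx5 was within 1.5-fold (1.13). Among the lower ones were Meis2 (0.0970), Ebf3 (0.229) and Bcl11b (0.135).

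Of 60 adhesion and guidance genes compared, 8 were 2-fold or more higher in members and 12 lower, with a median log2 ratio of -0.005, beside 0.828% and 3.81% of all genes. Besides Jam2, Sorcs3 and Pcdh20 the higher ones were the protocadherins Pcdh10 and Pcdh11x, the cadherin Cdh4, the contactin Cntn5 and the immunoglobulin adhesion molecule Alcam. Pcdh10 had 247 UMIs in members and 1135 in comparison cells, a ratio of 2.81 (2.44 to 3.22). The repulsive ligand gene Sema3a had 2 UMIs in members and 311 in comparison cells, and the ephrin gene Efnb2 had 4 and 263.

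Of 32 transmitter receptor genes compared, 1 was 2-fold or more higher in members and 12 were lower, beside 0.828% and 3.81% of all genes. The dopamine receptor gene Drd1 stood at 38.6 CPM in members and 16.9 CPM in comparison cells (2.29-fold, 1.58 to 3.22). The NMDA receptor subunit gene Grin2a stood at 21.8 CPM in members and 66.7 CPM in comparison cells, and the cannabinoid receptor gene Cnr1 at 3.96 and 24.6 CPM. Of 37 voltage-gated channel genes compared, 1 was 2-fold or more higher, the potassium channel subunit gene Kcnab1 (2.53-fold, 1.55 to 3.99), of whose UMIs 1 member held 26.1%, and 0 were lower. Kcnk2 was the 1 higher gene of 5 two-pore channel genes compared, and Kcnk1 (1.11), Kcnk3 (0.715) and Kcnk4 (0.712) were within 1.5-fold.

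Of 19 genes of cystine uptake and glutathione compared, Slc7a11 among them, 2 were 2-fold or more higher and 0 were lower, beside 0.828% and 3.81% of all genes. The second was Slc7a5, the light chain of the large neutral amino acid transporter, with 47.5 CPM in members and 22.3 CPM in comparison cells (2.13-fold, 1.54 to 2.90). Slc3a2, the heavy chain that both transporters share, stood at 105 CPM in members and 76.3 CPM in comparison cells (1.38-fold, 1.12 to 1.68). The glutathione synthesis genes Gclc (0.732) and Gclm (1.09) and the antioxidant factor Nfe2l2 (0.921) were within 1.5-fold. Of 20 genes of serine synthesis and Atf4 targets compared, Nupr1 was 2-fold or more higher (98.0 CPM in members and 44.6 CPM in comparison cells, interval of the ratio 1.76 to 2.72), 0 were lower, and Atf4 itself stood at 347 CPM in members and 345 CPM in comparison cells. Of 15 p53 target and cell cycle arrest genes compared, Rprm and the stress gene Gadd45b (2.19-fold, 1.29 to 3.53) were higher and Cdkn1c was lower, while Cdkn1a was within 1.5-fold (0.911).

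Plpp4 chose the cells, so its own level is not set beside its family. Of 15 other lipid phosphate phosphatase and related genes compared, 0 were 2-fold or more higher and 1 was lower, beside 0.828% and 3.81% of all genes. The lower one was the kinase gene Dgkg, with 1 UMI in members and 125 in comparison cells. Plpp2 had a ratio of 1.93 (1.35 to 2.70), and Plpp1 (0.824) and Plpp6 (0.880) were within 1.5-fold. All 17 neurofilament and axon genes compared were within 1.5-fold, from 0.885 to 1.37. Among all genes compared, only 4.27% were 1.5-fold or more higher and 9.73% lower. Of 16 neuropeptide and secreted factor genes compared, Calca was higher and 5 were lower, beside 0.828% and 3.81% of all genes. Most Calca UMIs lay in the members outside cluster 4. Among the lower genes was the tachykinin gene Tac1, with 30.7 CPM in members and 151 CPM in comparison cells. Of 15 calcium-binding protein genes compared, 0 were 2-fold or more higher and 1 was lower, Ncald (0.496). Of 13 immediate-early genes compared, 0 were 2-fold or more higher and 1 was lower, and Jun stood at 470.3 CPM in members and 299.9 CPM in comparison cells (1.57-fold). Where only 1 gene of a list was lower, this is not read as a trait of the list, given the shares over all genes.

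The members were not uniform. Clustered among themselves with the rule genes left out, they fell into 4 subgroups of 23, 22, 12 and 3 cells, and the genes that separate subgroups are a description, since the clustering used them. In subgroup 1, of 23 cells, Slc7a11 was seen in 19 cells with a median of 2 UMIs and stood at 186 CPM, against 29.3 CPM in the other members (6.34-fold, 3.77 to 11.1). Kcnk2 was seen in 20 of the 23 and stood at 183 CPM, against 44.0 CPM in the other members. Next came Ramp3, a receptor activity-modifying protein, at 244 CPM against 70.4 CPM, the copine gene Cpne9 at 110 CPM against 35.2 CPM, and Crhbp, seen in all 23 cells, with a ratio of 3.10 (2.48 to 3.89). Comparison cells had 47.8 CPM of Ramp3 and 65.1 CPM of Cpne9. Plpp4 was seen in all 23 cells, together with Tbr1 in 11 and alone in 12. Of the 17 Cdh8 UMIs of the members, 15 were here, at 45.7 CPM, against 5.89 CPM in subgroup 2 and 0 UMIs in subgroups 3 and 4.

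Subgroup 2, of 22 cells, was the one richest in Tbr1, at 130 CPM (94.2 to 174) against 61.0 CPM in subgroup 1 and 62.6 CPM in subgroup 3, and 16 of its cells held both rule genes, 5 held Tbr1 alone and 1 held Plpp4 alone. Jam2 was seen in 20 of the 22 with a median of 4 UMIs, at 283 CPM against 76.1 CPM in the other members (3.72-fold, 2.62 to 5.33). The transmembrane protein gene Tmeff2 stood at 130 CPM against 19.4 CPM in the other members, the cytochrome oxidase subunit gene Cox4i2 at 200.3 CPM against 38.8 CPM, the nicotinic receptor modulator gene Lypd6 at 138 CPM against 32.8 CPM, and the adhesion molecule gene Chl1 at 103 CPM against 25.4 CPM. Comparison cells had 62.7 CPM of Tmeff2, 90.5 CPM of Cox4i2, 85.5 CPM of Lypd6 and 19.3 CPM of Chl1, so for the first 3 they lay between subgroup 2 and the other members. Tmeff2 was also seen in 89.7% of horizontal cells at equal depth. Both subgroups 1 and 2 were high in Rprm (607 and 457 CPM), Pcdh10 (317 and 412 CPM) and Irx6 (289.6 and 309 CPM), beside 78.1, 87.2 and 82.7 CPM in comparison cells.

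Subgroup 3, of 12 cells, did not carry that pattern. Pvalb, the calcium-binding protein parvalbumin, was seen in all 12 with a median of 41.5 UMIs (range 4 to 92) and stood at 1845 CPM, against 28.4 CPM in the other members. The homeobox gene Six3 was seen in all 12 (6 to 25 UMIs) and stood at 699.8 CPM, against 25.7 CPM in the other members. The potassium channel gene Kcna1 (177 CPM against 14.9 CPM) and the potassium channel-interacting protein gene Kcnip1 (184 CPM against 16.2 CPM) followed. The glucuronyltransferase gene B3gat2 (166 CPM against 14.9 CPM) came next. In comparison cells Pvalb stood at 407 CPM, Kcna1 at 69.7 CPM, Kcnip1 at 74.8 CPM and B3gat2 at 102 CPM, all between subgroup 3 and the other members. In subgroup 3 itself, Rprm stood at 73.7 CPM, Pcdh10 at 11.1 CPM, Pou4f2 at 22.1 CPM and Pou4f3 at 81.0 CPM, and Irx6 had 0 UMIs. Slc7a11 and Sorcs3 each stood at 3.68 CPM, which is 1 UMI. The 12 cells had a median of 23628 UMIs (range 6731 to 32743). The median was 14851 in subgroup 1, 15380 in subgroup 2 and 22001 in subgroup 4.

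Subgroup 4 held 3 cells, too few for any gene to meet the limit that 1 cell hold under 25% of the UMIs. All 3 were chosen by Plpp4 alone. Spp1, osteopontin, had 57 UMIs over 2 of the 3 cells (804 CPM) and 3 UMIs in the other 57 members. Ctxn3, a cortexin, had 34, 37 and 39 UMIs in the 3 cells, and Igf1 had 4, 13 and 14. Other cells carried both genes too. Ctxn3 stood at 1551 CPM in subgroup 4, 221 CPM in subgroup 2 and 188 CPM in comparison cells, and Igf1 at 437, 162 and 118 CPM. Pou4f1 stood at 14.1 CPM, which is 1 UMI, beside 479 CPM in subgroup 1. Irx6 was seen in all 3 cells (6 to 8 UMIs), at 296 CPM.

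**Figure D3:**
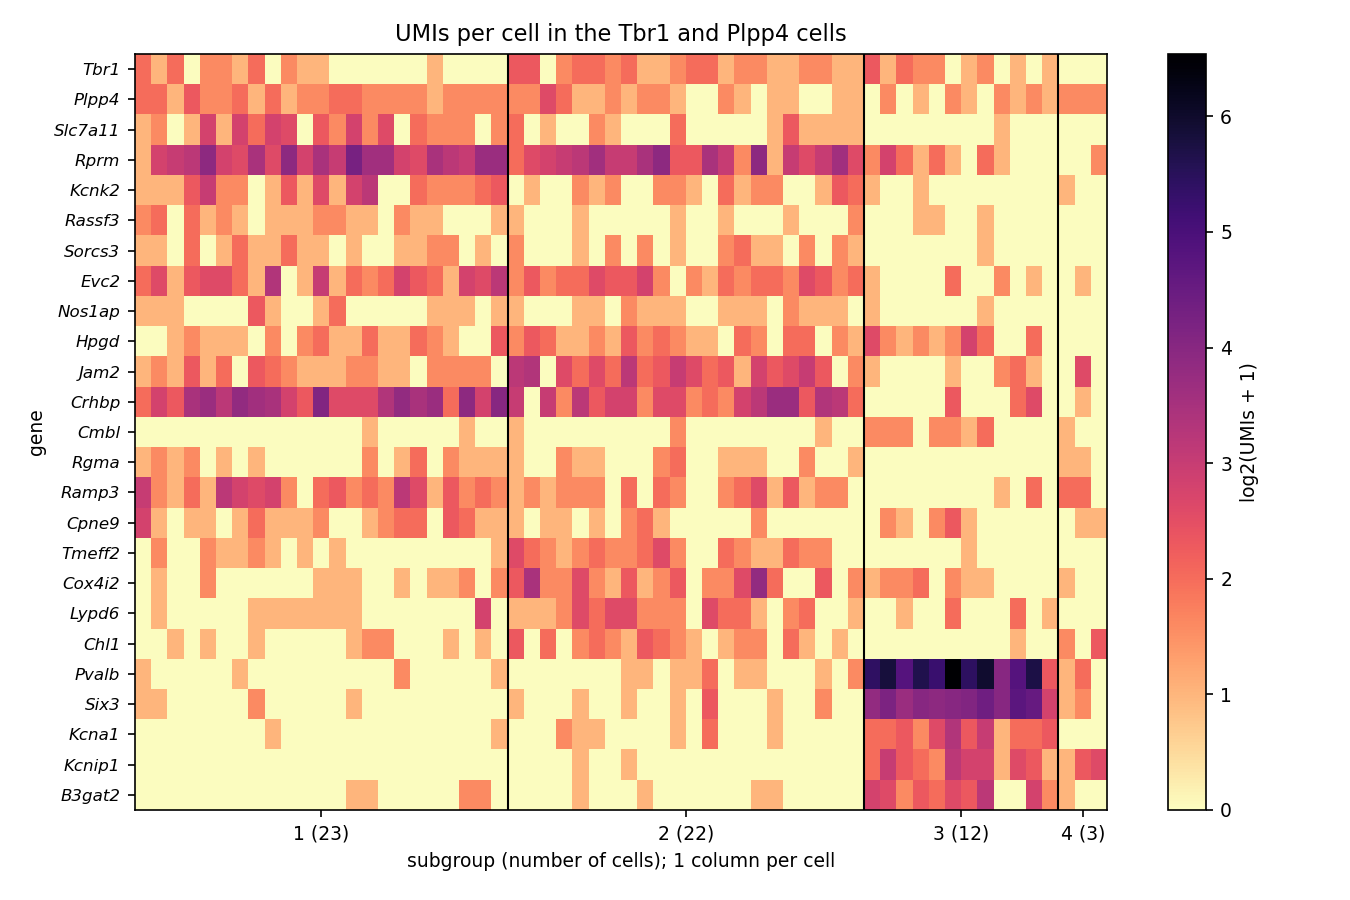
UMIs of the rule genes, the 12 genes with the highest ratios and the leading genes of subgroups 1 to 3 in each of the 60 Tbr1 and Plpp4 cells, as log2(UMIs + 1), with 1 column per cell and black lines between subgroups. Rprm, Evc2 and Crhbp fill most columns of subgroups 1 and 2, while Pvalb and Six3 fill those of subgroup 3.

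**Figure D4:**
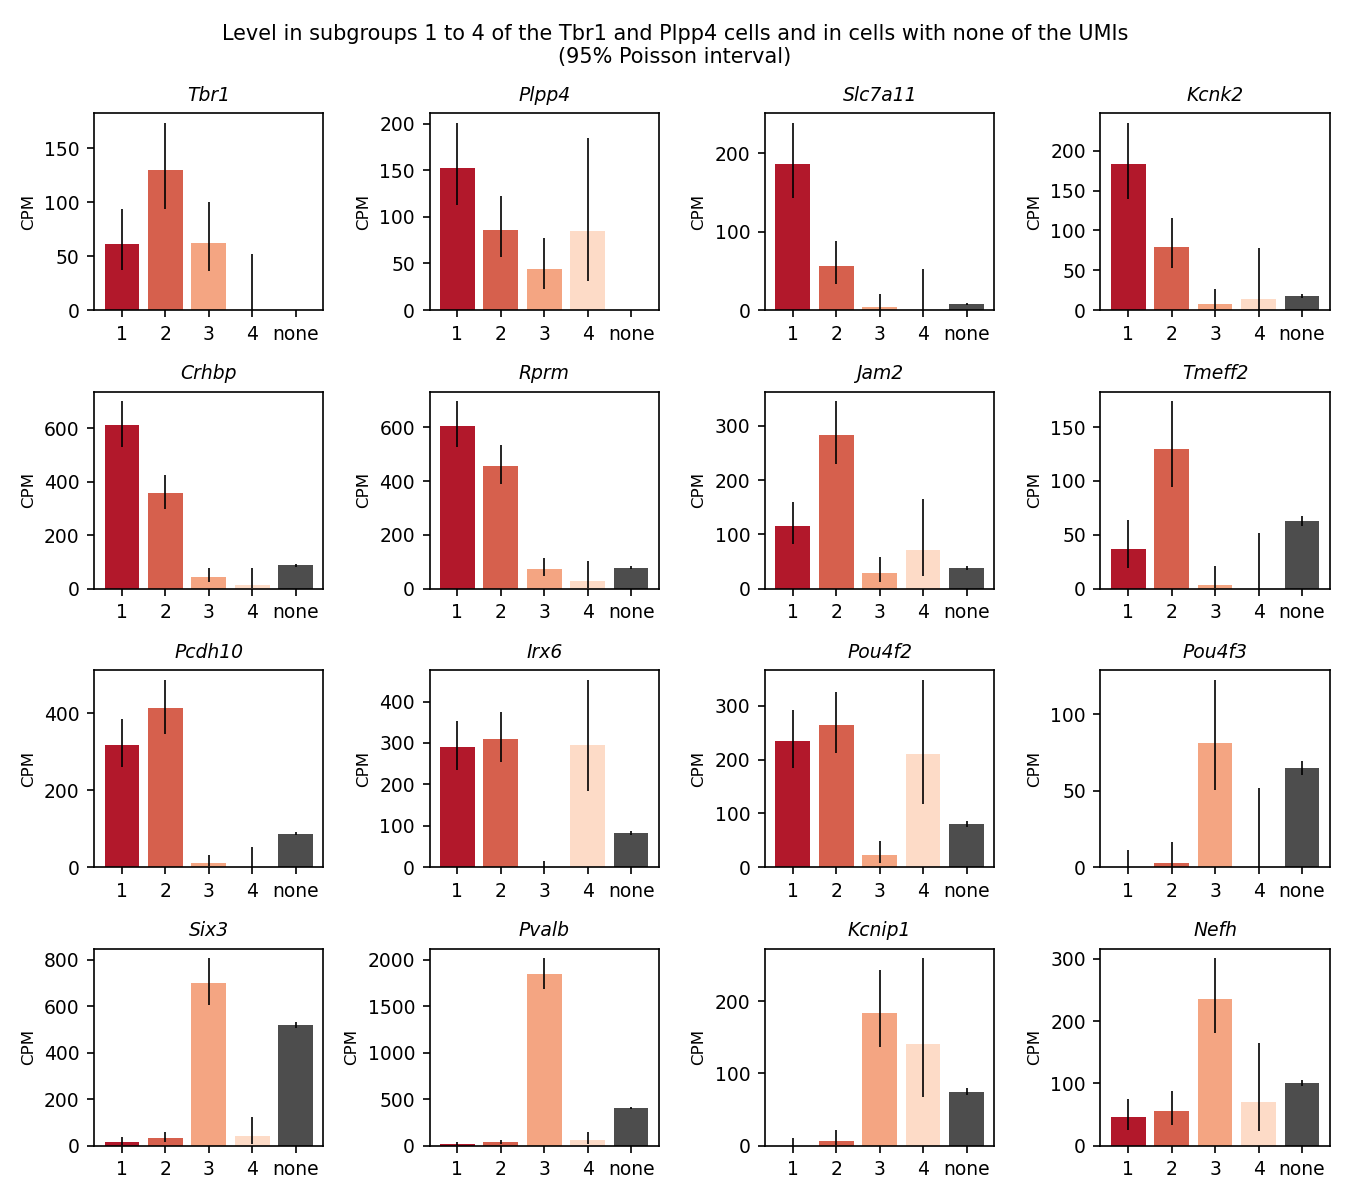
Level of 16 genes (vertical axes, CPM) in subgroups 1 to 4 of the Tbr1 and Plpp4 cells and in the 784 ganglion cells with no UMI of either gene (none). Bars are levels and lines exact 95% Poisson intervals, and Pcdh10 is high in subgroups 1 and 2 and Irx6 in subgroups 1, 2 and 4, while they are at 11.1 and 0 CPM in subgroup 3, where Pvalb reaches 1845 CPM.

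Subgroups 1 and 2 lay apart from 3 and 4 in a clustering of all 948 ganglion cell barcodes. It left out 15 rule and marker genes and was added after the data were seen. It used the same counts, with genes that separate the subgroups such as Six3 kept in, so it is no independent support for them. Among 24 clusters, cluster 4 held 42 of the 60 members in its 61 cells. Its other cells were 9 with 1 UMI of Tbr1 or Plpp4 and 10 with none. All 23 cells of subgroup 1 and 19 of subgroup 2 lay there. That clustering put subgroups 1 and 2 together. The 12 cells of subgroup 3 lay in clusters 21 (7 cells) and 10 (5 cells), the 3 cells of subgroup 4 in cluster 5, which is led by Spp1, and the last 3 members in clusters 6, 16 and 24.

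Cluster 4 also held cells without a rule transcript. The 42 members of cluster 4 had 123 CPM of Slc7a11, 538 CPM of Rprm, 194 CPM of Jam2, 136 CPM of Kcnk2 and 69.4 CPM of Sorcs3, all genes left out of that clustering. The 10 comparison cells inside the cluster had 87.3, 498, 183, 69.9 and 17.5 CPM of these genes, the last from 2 UMIs, and the 774 comparison cells outside it had 6.43, 74.4, 36.6, 16.7 and 9.14 CPM. The 42 members had a median of 14884 UMIs, beside 12107 in the 10 cells. Conversely, the 18 members outside cluster 4 had 12.8 CPM of Slc7a11, 110 CPM of Rprm, 69.1 CPM of Jam2 and 15.4 CPM of Kcnk2. Against all 784 comparison cells, the log2 ratios of those 18 members were -0.16 for Kcnk2, -0.85 for Sorcs3 and -0.18 for Crhbp. Evc2 was at 33.3 CPM in those 18 members and 236 CPM in the 42 members of cluster 4. Cmbl ran the other way, with a log2 ratio of -0.41 in the 42 members and 51.6 CPM in subgroup 3, beside 6.45 CPM in comparison cells. Crhbp, Evc2 and Cmbl were not left out of that clustering, so their values by cluster are a description and no support for it.

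**Figure D5:**
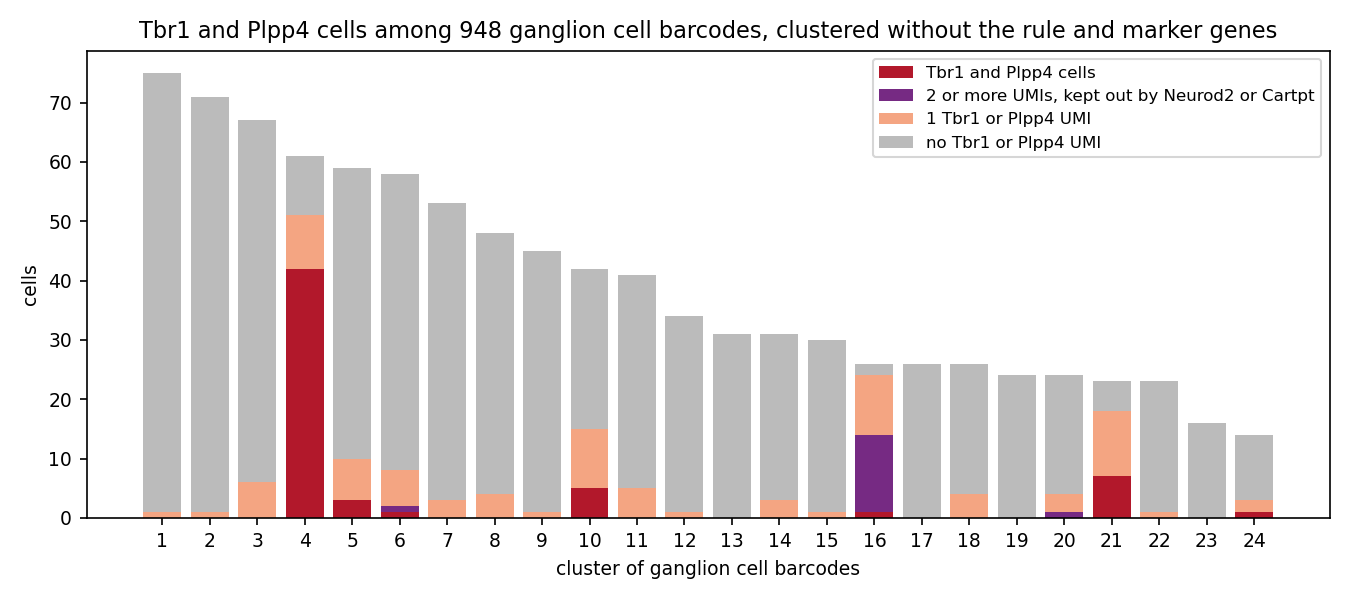
Number of cells (vertical axis) in each of 24 clusters of the 948 ganglion cell barcodes (horizontal axis), split into Tbr1 and Plpp4 cells, cells kept out by Neurod2 or Cartpt, cells with 1 UMI of Tbr1 or Plpp4 and cells with none. Cluster 4 holds 42 of the 60 members, cluster 21 holds 7 and cluster 10 holds 5, and cluster 16 holds 13 of the 15 cells kept out.

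Six3, which was not in a rule for naming genes across all members and was picked after its values were seen, had a low level in cluster 4. Neither it nor Pou4f3 was left out of that clustering, so their values by cluster are a description and no support for it. Six3 stood at 14.5 CPM in the 42 members of cluster 4 and at 512 CPM in the 18 members outside it, and at 26.2 CPM in the 10 comparison cells of cluster 4 and 525 CPM in the other 774. Six3 was also seen in 98.3% of horizontal cells at equal depth. Pou4f3 had 1 UMI in the 42 members of cluster 4 (1.61 CPM) and 56.3 CPM in the 18 others.

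The level of several member genes was higher where more rule transcripts were counted. Cells with 2 or more UMIs are here the members, without the 15 cells kept out by Neurod2 or Cartpt. No such maximum was set on cells with 0 or 1 UMI, so the step from 1 to 2 UMIs mixes the count with that filter. In cells with 0, 1, 2, 3 and 4 or more UMIs of Tbr1 and Plpp4, Rprm stood at 78.1, 156, 292, 474 and 420.1 CPM, and Jam2 at 37.9, 56.5, 107, 145 and 216 CPM. Slc7a11 stood at 7.14, 8.47, 57.6, 102 and 100.4 CPM, so cells with 1 UMI were close to cells with none. Over 713 ganglion cells thinned to 12500 UMIs, the genes whose counts followed the sum of Tbr1 and Plpp4 most closely were Rprm (Pearson correlation 0.393), Jam2 (0.326), Pcdh10 (0.317), Crhbp (0.313) and Rgs4 (0.303). Slc7a11 followed Plpp4 most closely (0.394), ahead of Evc2 (0.346) and Crhbp (0.340), while Rprm (0.283), Rgs4 (0.277) and Jam2 (0.261) led for Tbr1. The cells share 1 library pool and the rule chose on these counts, so the correlations are a description.

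The 15 cells kept out by Neurod2 or Cartpt had another balance of the rule genes. Tbr1 stood at 80.2 CPM in members and 170 CPM in the kept-out cells, and Plpp4 at 96.0 and 14.5 CPM. Rprm was at 372 CPM in members and 373 CPM in the kept-out cells. Slc7a11 was at 80.2 CPM in members and had 0 UMIs in the kept-out cells, where 3 counts would be 10.9 CPM. At equal depth Pou4f3 was seen in 10.2% of 49 members and 92.9% of 14 kept-out cells, and Six3 in 40.8% and 92.9%. Of the 15, 13 lay in cluster 16, which holds 1 member.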

How the data were processed

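Single-cell RNA was measured in GFP-sorted retinal cells of 3-month-old mice with the 10x Chromium 3′ V2 kit, per the labels' protocols. The deposited values are counts of unique molecular identifiers per gene and barcode, whole numbers that the authors left without normalization (27999 genes, 3237 barcodes). The submitters' processing notes name Cell Ranger, Seurat 2.2 and the build mm10. Neither the counting settings nor the rule that made a barcode a cell was found in the sources used here. No barcode occurred in duplicate.

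From the counts, UMIs were summed over the 60 members (1009991 UMIs) and the 784 comparison cells (13022601 UMIs) and scaled to CPM, with exact Poisson intervals for levels, exact conditional intervals for ratios and Clopper-Pearson intervals for shares, at 95% and for counting error only. PCR duplicates are collapsed by the identifiers. Genes with 100 or more UMIs over both sides were compared, without mitochondrial, ribosomal protein and rule genes. A floor of 3 counts stood for 0. Shares were compared after thinning each cell to 12500 UMIs, the lower quartile (12536.75) rounded down. This left out 11 members, 208 comparison cells and 298 of 415 horizontal cells. A horizontal cell was a barcode with 2 or more UMIs of Lhx1, 0 of Slc17a6 and under 10% mitochondrial UMIs. Scrublet in scanpy 1.11.5 called 58 of 2701 barcodes doublets, which were kept. Members were clustered (Leiden, resolution 1) on 500 variable genes and 15 components, and all ganglion cells on 2000 genes and 30 components. Python 3.11.15, numpy 2.4.6, scipy 1.17.1 and pandas 2.3.3 were used, and the ratio calculation was tested on simulated data.

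The genes named are the marker and rule genes, the 12 highest and 12 lowest ratios where 1 cell held under 25% of the UMIs of the side with the higher level, list members 1.5-fold or more apart (4 a list, exceeded after the values were seen where a count is spelled out), the 5 leading genes of each subgroup and the 5 strongest correlations, with further list members given as context for their group. Genes named outside these are said to be. The members and the 31 gene lists were chosen with earlier results of these data known. Alternatives covered the cell filters, the rule, doublets, depth, scaling, single cells, the UMI minimum and the clustering. Results on a few genes are not reported here.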

Additional observations from a re-analysis of the deposited data

How the results depend on the processing

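With 1 pooled sample, replicate error is unknown, and small levels rest on few UMIs, since the median gene compared had 32 UMIs in members. No paired analysis was possible because the labels give 1 group and no barcode is tied to a retina. For the 24 genes at the ends of the ratio order, 264 of 264 values under 11 other settings kept their direction and 238 stayed within the interval of the ratio. These genes were picked for extreme ratios in the same counts, so a change of direction was unlikely from the start. The intervals of the lowest ratios are wide, since few UMIs were counted in members. TMM scaling shifted all log2 ratios by 0.00548. The share of members (6.33%) fell to 3.48% when a sum of 3 was required, which leaves 33 cells. That setting gave 135 genes 2-fold or more higher and 648 lower, beside 77 and 354. Leaving out, gene by gene, the member with most UMIs gave 49 and 624, a minimum of 20 UMIs 332 and 820, and a threshold of 1.5-fold 397 and 904. With no minimum and 5 CPM added the lower genes numbered 170. Maxima of Neurod2 and Cartpt on both sides gave 64 higher and 277 lower, and no such maximum gave 60 and 248. Under 2 settings added after the data were seen, there were 162 higher and 625 lower with only the 42 members of cluster 4, and 164 and 689 with only the 18 members outside it. Fewer cells widen the spread of ratios by construction. In the first of these Cmbl reversed (-0.41), and in the second Kcnk2 (-0.16), Sorcs3 (-0.85), Evc2 (-0.0015) and Crhbp (-0.18) reversed, on the log2 scale. Cmbl, Evc2 and Crhbp were not left out of the clustering that gave cluster 4, so their reversals are a description. The number of subgroups was 4, or 3 at resolution 0.5, with an adjusted Rand index of 0.834 to 1 to the division described.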
